A study of Homo sapiens with 10 samples.

Results

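The messages described here are 10 abundant mRNAs known for a 5′ terminal oligopyrimidine (TOP) start that do not encode ribosomal proteins: EEF1A1, EEF1B2, EEF1D, EEF1G, EEF2, TPT1, PABPC1, EIF3E, EIF3F and NACA. They were taken by symbol from a list of translation factors and other TOP messages, and all 10 were found among the 57993 gene symbols of the deposited tables. The cells were HCT116, a human colorectal carcinoma line, and RNA was sequenced from cells sorted for GFP 24 hours after transfection. KDM5A-/- cells carried mutant KDM5A on a plasmid in 2 libraries, wild-type KDM5A in 3 and empty vector in 3, and parental HCT116 cells carried empty vector in 2. The mutation is not named in the labels. Both lines were purchased from 1 supplier, and the medium of the knockout line alone held G418, so genotype, line and drug cannot be told apart. The sequencer is given as either of a pair of Illumina models, without saying which library ran on which. KDM5A is a histone demethylase, and the series concerns its methylation by SMYD2.

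A TOP message begins with a cytosine followed by an unbroken run of pyrimidines. The kinase complex mTORC1 promotes translation of such messages in growing cells, and the RNA-binding protein LARP1 holds them back from translation and protects them from decay when mTORC1 is inactive. The ribosomal protein messages and a group of translation factors form this class. Among the members, EEF1A1 delivers aminoacyl-tRNA to the ribosome, EEF1B2, EEF1D and EEF1G form the complex that recharges it with GTP, and EEF2 drives translocation. EIF3E and EIF3F are subunits of the initiation factor eIF3, PABPC1 binds the poly(A) tail, NACA is the alpha subunit of the nascent polypeptide-associated complex, and TPT1 encodes the translationally controlled tumour protein.

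The starts of these messages are shown because the pyrimidine run defines the class. Sequences are from RefSeq on build GRCh38.p14, read 5′ to 3′ along the gene, with 10 bases before the annotated start and 20 from it, and capitals mark the unbroken run of C and T that begins at the first base. An entry was matched for 7 of the 10 members, with a pair of entries for EEF1B2.
EEF1A1, chr6:73521013-73521042, minus strand: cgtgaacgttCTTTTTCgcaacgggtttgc
EEF2, chr19:3985444-3985473, minus strand: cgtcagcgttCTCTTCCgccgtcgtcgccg
TPT1, chr13:45341164-45341193, minus strand: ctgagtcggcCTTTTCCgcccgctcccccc
NACA, chr12:56725280-56725309, minus strand: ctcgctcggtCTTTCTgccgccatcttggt
EEF1G, chr11:62573872-62573901, minus strand: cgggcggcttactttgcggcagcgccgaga
EIF3F, chr11:7987327-7987356, plus strand: cttccgcctcCTTCTTTCTCgacaagatgg
EEF1B2, chr2:206159885-206159914, plus strand: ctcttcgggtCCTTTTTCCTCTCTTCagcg
EEF1B2, chr2:206159599-206159628, plus strand: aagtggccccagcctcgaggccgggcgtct

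In 6 of the 7 members at least one entry began with C followed by 4 or more pyrimidines, read on the sense strand only. The same start was present in 4.07% of all 35116 entries, a share counted per entry and not per gene as for the members. The longest runs were those of EEF1B2 (16 bases) and EIF3F (10 bases), and the EEF1G entry began with A and held no such run. Of the 77 listed ribosomal protein genes, 62 had an entry and 46 of those (74.2%) began this way. A match describes the letters at the annotated start, which need not be the start used in these cells.

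**Figure D1:**
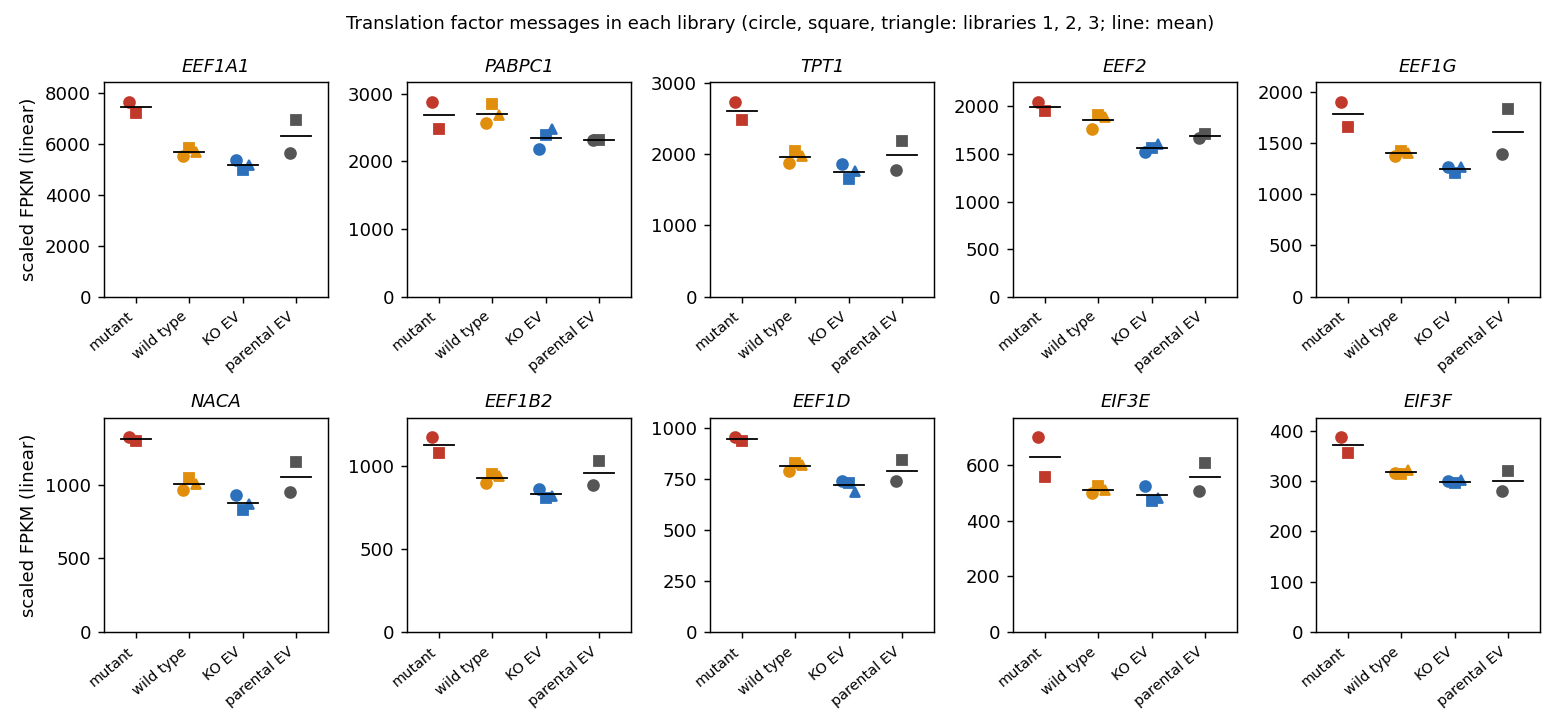
Scaled linear FPKM (y axis, from 0) of each member in every library, with groups on the x axis: KDM5A-/- cells with mutant KDM5A, with wild-type KDM5A and with empty vector (KO EV), and parental cells with empty vector; points are libraries and lines are group means. For EEF1A1, TPT1 and NACA both mutant libraries lie above all wild-type and KO EV libraries, with the second parental library next below them; these are values on the main scaling, and after quantile normalization the difference from KO EV turns below 0 for EEF1A1 and TPT1.

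Values below are the deposited FPKM turned back to the linear scale and divided by 1 factor per library, the median ratio over genes found in all libraries, and they are called scaled values. FPKM is corrected for length, so levels of different genes can be set side by side. How many reads a value rests on is unknown, because the tables give log2 FPKM whose linear values sum to 999975 to 1000010 per library. No label says whether the libraries of a group are separate cultures, and p-values therefore reflect only how far these libraries spread, which may be technical. In bulk RNA the share of cells and the RNA per cell cannot be told apart.

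The libraries differed in make-up in a way that touches these members. The share of the total on protein-coding genes was 89.4% to 90.2% in both mutant libraries and parental library 2, and 92.3% to 92.7% in the other 7. Ribosomal protein messages made up 15.5% to 16.1% in those 3 libraries and 12.6% to 13.9% in the other 7. The part of this make-up in the results below was not tested beyond the alternatives given beside them. Of 10 markers of colonic epithelium EPCAM, CDH1, KRT8, KRT18, KRT20, CDX2 and CEACAM5 reached a scaled value of 1, and CDX1, VIL1 and LGR5 did not. Their summed level was 3691 to 4068 with mutant KDM5A, 3128 to 3287 with wild-type KDM5A, 2966 to 3024 with empty vector in knockout cells and 2692 to 3104 in parental cells. Of 17 markers of fibroblasts, blood, endothelium and neurons 6 reached 1, namely 1 of 6, 2 of 5, 1 of 3 and 2 of 3 in that order, while PTPRC, CD3E, VWF, CDH5, COL3A1 and DCN did not, and LUM was at 0 in every library. The fibroblast markers summed to 13.7 to 15.4 with mutant KDM5A, 17.7 to 25.3 with wild-type KDM5A, 20.7 to 28.9 with empty vector in knockout cells and 15.1 to 22.6 in parental cells. The blood markers summed to 5.34 to 6.59 with mutant KDM5A, 4.46 to 5.18 with wild-type KDM5A, 1.75 to 2.85 with empty vector in knockout cells and 2.37 to 2.39 in parental cells. The neuron markers summed to 21.6 to 26.6 in knockout cells of all kinds and 36.2 to 37.7 in parental cells, and the endothelial ones to at most 1.41. With mutant KDM5A against empty vector the 1 fibroblast marker tested was lower (-0.70; -0.67 and not past the threshold after quantile normalization) and the 1 blood marker tested was higher (1.33), and the part of either in the results below was not tested. The KDM5A plasmids gave scaled KDM5A values of 22816 to 23346 with the mutant and 13452.5 to 16237 with the wild type, against 12.2 to 15.3 with empty vector in knockout cells and 13.3 and 17.7 in parental cells, so total KDM5A RNA did not check the knockout label.

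All 10 members were abundant in every library. EEF1A1 stood between ranks 7 and 14 of all symbols and made up 0.552% to 0.671% of each library's total, and EIF3F, the lowest, stood between ranks 386 and 437. Averaged over the 10 libraries, the scaled values ran in the order EEF1A1 (6019), PABPC1 (2517), TPT1 (2033), EEF2 (1763), EEF1G (1471), NACA (1038), EEF1B2 (945), EEF1D (808), EIF3E (538) and EIF3F (319). The order of each neighbouring pair held within all 10 libraries, except EEF2 above EEF1G, which held in 9. Across libraries the ranges of all neighbours overlapped apart from EEF1A1 over PABPC1 and EIF3E over EIF3F. Between its lowest and highest library a member differed by 1.32 times (PABPC1) to 1.66 times (TPT1).

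Together the 10 members made up 1.74% to 1.84% of the library total with mutant KDM5A, 1.70% to 1.76% with wild-type KDM5A, 1.66% to 1.67% with empty vector in knockout cells and 1.77% to 1.83% in parental cells. As a share of the deposited total the groups thus lay close together, and the larger differences below appear after each library is scaled to the median gene. For 6 members (EEF1A1, EEF1B2, EEF1G, TPT1, EIF3E and NACA) the group means ran from mutant through parental and wild-type to knockout with empty vector. For EEF1D, EEF2 and EIF3F the wild-type mean stood above the parental one. PABPC1 had its highest mean with wild-type KDM5A. Outside the lists, the 5 protein-coding genes whose centred log2 profile over the 10 libraries lay nearest to the mean profile of the members were CFL1, KRT19, GSTP1, PEBP1 and MYL12A, at root mean square distances of 0.0293 to 0.0388, against a median of 0.237 over 11639 candidates. Of the neighbouring groups in these orders, the mutant libraries did not overlap the next group for EEF1A1, EEF1B2, EEF1D, EEF2, TPT1, EIF3F and NACA. Over all genes tested, both mutant libraries lay above all wild-type ones in 19.5% and above all knockout empty-vector ones in 23.3%. The share above both parental libraries was not counted. The parental and wild-type groups, neighbours in 9 members, overlapped in all of those but EEF2.

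Mutant KDM5A against empty vector addresses what differs 24 hours after the mutant gene is supplied to knockout cells. On the main scaling 8 of the 10 members were higher with mutant KDM5A and none lower, and after quantile normalization the difference was below 0 for every member except NACA, with PABPC1 past the threshold (-0.40, adjusted p = 0.0379) as were 11.9% of all genes. Over all 17779 genes tested 9.48% were higher and 7.05% lower. Of the 400 other genes whose mean scaled value was at least that of EIF3F, 282 (70.5%) were higher and 2 (0.5%) lower, so the members' count was near that of other abundant genes, whose median likewise turned below 0 (-0.07) after quantile normalization, with 6.75% higher and 16.2% lower. The median log2 fold change was 0.42 over the members, 0.40 over those 400 genes and -0.01 over all genes tested. The 400 included ribosomal protein and other listed TOP messages. Without those messages 307 genes were left, with 65.8% higher and 0.651% lower on the main scaling (median 0.34). Limma's moderated test was used in 1 fit of all 10 libraries, with Benjamini-Hochberg adjustment over all genes, and the adjusted p-values below are from it.

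The factor that brings aminoacyl-tRNA to the ribosome and its exchange complex are taken first. EEF1A1 had scaled values of 7669 and 7234 with mutant KDM5A, against 5371, 4979.5 and 5187 with empty vector. The groups did not overlap (log2 fold change 0.52, SE 0.09, adjusted p = 0.00927). EEF1G, the scaffold subunit of the exchange complex, had 1900.4 and 1659 with mutant KDM5A, against 1267, 1208 and 1268 with empty vector (log2 fold change 0.51, SE 0.11, adjusted p = 0.0153). EEF1A1 and EEF1G were the members of the elongation group whose adjusted p went past 0.05 without mutant library 1, to 0.0512 and 0.0938, and EEF1G also failed without empty-vector library 2 (adjusted p = 0.0522). EEF1B2, a nucleotide exchange subunit, had 1175 and 1078 with mutant KDM5A, against 862, 809.8 and 818 with empty vector (log2 fold change 0.44, SE 0.07, adjusted p = 0.00792). EEF1D, the other exchange subunit, had 956 and 936 with mutant KDM5A, against 744, 732 and 688 with empty vector (log2 fold change 0.39, SE 0.07, adjusted p = 0.00791). In all these messages both mutant libraries lay above all 3 empty-vector libraries, a pattern that 23.3% of all genes tested showed. EEF2, the translocation factor, had 2048 and 1947 with mutant KDM5A, against 1526, 1561 and 1606 with empty vector, the smallest difference among the elongation factors (log2 fold change 0.35, SE 0.06, adjusted p = 0.00792).

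Among the other members, NACA and TPT1 had the largest differences and PABPC1 the smallest. NACA had 1323 and 1300.2 with mutant KDM5A, against 931, 831 and 869.7 with empty vector (log2 fold change 0.58, SE 0.09, adjusted p = 0.00560). TPT1 had 2733 and 2475 with mutant KDM5A, against 1862, 1645 and 1757 with empty vector (log2 fold change 0.57, SE 0.10, adjusted p = 0.00828). For both messages the mutant libraries stood well clear of the empty-vector libraries. EIF3F had 387 and 356 with mutant KDM5A, against 300.2, 295 and 301 with empty vector (log2 fold change 0.31, SE 0.06, adjusted p = 0.0144), and it did not pass without mutant library 1 (adjusted p = 0.0835). EIF3E had 700.2 and 556 with mutant KDM5A, against 525, 469.9 and 482 with empty vector (log2 fold change 0.34, SE 0.11, adjusted p = 0.0595). Its mutant libraries lay far apart, and it passed without mutant library 2 (log2 fold change 0.51, adjusted p = 0.0219). PABPC1 had 2883 and 2478 with mutant KDM5A, against 2181, 2395 and 2479 with empty vector, so the groups overlapped (log2 fold change 0.19, SE 0.09, adjusted p = 0.170).

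**Figure D2:**
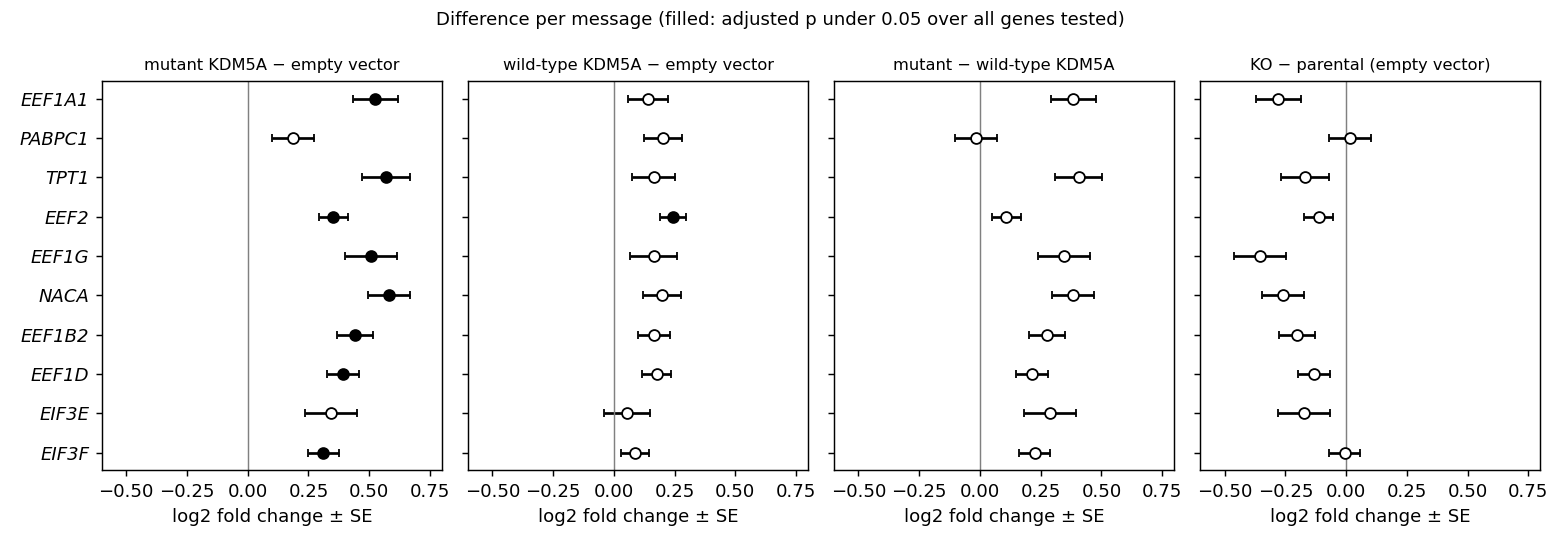
Log2 fold change with its SE for each member (y axis, in order of level) in the 4 comparisons, with filled points for an adjusted p under 0.05 over all genes tested. Against empty vector 8 members pass with mutant KDM5A and 1, EEF2, with wild-type KDM5A, and none passes in the other comparisons. After quantile normalization the differences of mutant KDM5A from empty vector turn below 0 for all members but NACA. EEF2 does not pass with wild-type KDM5A after quantile normalization or on the deposited values.

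The size of these differences depended on the scaling. On the values as deposited the median log2 fold change over the members was 0.07 and that over all genes -0.30, a difference of 0.38, against 0.42 on the main scaling. There 3 members passed, EEF1A1 (0.18), TPT1 (0.23) and NACA (0.24), while PABPC1 (-0.15) and EIF3F (-0.03) lay below 0. Over all genes 37.1% passed on the deposited values, 458 higher and 6150 lower. With each library's protein-coding share added to the model, a setting added once the data had been seen, the members' median was 0.27 and none passed. Over all genes 0.709% passed in place of 16.5%. Among knockout libraries the protein-coding share was 90.2% with mutant KDM5A and 92.3% to 92.7% in the rest. It thus nearly follows the mutant plasmid, and this fit cannot tell library make-up from the plasmid. After a correction for exonic length the median was 0.43 and 8 members passed, as did 15.7% of all genes. With no filter on low values 6 passed, with 5.66% of all genes, and EEF1A1 (adjusted p = 0.0617) and EEF1G (adjusted p = 0.0525) did not.

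The ribosomal protein messages, the main body of the TOP class, lay beside the members. Of 77 tested, 68 were higher with mutant KDM5A and none lower, with a median log2 fold change of 0.58; on the deposited values 50 were higher (median 0.24), and after quantile normalization 5 were higher and 1 lower (median 0.01). Of 20 other messages described as TOP, 14 were higher and 1 lower (median 0.43), against 6 higher and 3 lower on the deposited values (median 0.09) and 2 higher and 3 lower after quantile normalization (median -0.04). They included the snoRNA host SNHG1 (0.58) and the prefoldin subunit PFDN5 (0.67), which passed under both other scalings too, and the HSP70 chaperone HSPA8 (0.53) and nucleophosmin NPM1 (0.42), which lay below 0 after quantile normalization. The other initiation factors had 11 of 39 higher and 2 lower on the main scaling (median 0.18), against 2 higher and 14 lower on the deposited values (median -0.15) and 3 higher and 7 lower after quantile normalization (median -0.02). EIF5, a GTPase activator (0.34), and the helicase EIF4A1 (0.33) were among those higher on the main scaling, and both lay below 0 under the other scalings. Of 15 other elongation and termination factors 2 were higher and 1 lower on the main scaling (median 0.07), against 1 higher and 8 lower on the deposited values (median -0.26) and 0 higher and 1 lower after quantile normalization (median -0.06). The 2 were EIF5A (0.50) and BTF3 (0.46), the beta partner of NACA, both below 0 after quantile normalization. PELO, a ribosome rescue factor, was lower (-0.33) and did not pass after quantile normalization (-0.29, adjusted p = 0.0516). On the deposited values the median of all genes was -0.30, below the median of each of these lists. These lists share some genes, such as BTF3, EIF3H and EIF4B, and were chosen with results of these data known.

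Paralogs of the members were counted as well, and 5 of the 8 listed passed the filter on low values. With mutant KDM5A against empty vector 0 were higher and 1 lower, and 3 were lower on the deposited values and 2 after quantile normalization. The 1 was PABPC1L, a poly(A)-binding protein known from oocytes, at 62.4 and 72.3 with mutant KDM5A and 80.5 to 88.4 with empty vector, and it was lower under all 3 scalings (log2 fold change -0.31, SE 0.08, adjusted p = 0.0317 in the limma fit on the main one). EEF1A2, the tissue-restricted paralog of EEF1A1, had 645 ± 37.1 with mutant KDM5A (SD, n = 2) and 599 ± 7.39 with empty vector (SD, n = 3). Its log2 fold change of 0.11 did not pass on the main scaling (SE 0.05, adjusted p = 0.206), and it passed as lower on the deposited values (-0.24, adjusted p = 0.0212) and after quantile normalization (-0.32, adjusted p = 0.0344). PABPC4, a cytoplasmic poly(A)-binding protein, differed by 0.06 on the main scaling (SE 0.06, adjusted p = 0.487), passed as lower on the deposited values (-0.28, adjusted p = 0.0320) and was at -0.17 after quantile normalization. PABPC3 and NACA2 lay near the filter, PABPC3 at 1.77 to 2.53 with mutant KDM5A and 1.84 to 3.45 with empty vector, and NACA2 at 0 to 1.23 with mutant KDM5A and 0.484 to 1.58 with empty vector. EEF1E1, a component of the aminoacyl-tRNA synthetase complex, differed by 0.07 on the main scaling (SE 0.09, adjusted p = 0.634), passed as lower on the deposited values (-0.26, adjusted p = 0.0261) and was at -0.02 after quantile normalization. On the deposited values the median of all genes was -0.30, with 458 higher and 6150 lower. There EEF1A2, PABPC4 and EEF1E1 lay above that median.

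Regulators of TOP translation were counted too. Of 31 tested, 5 were higher and 4 lower with mutant KDM5A on the main scaling (median 0.00275), against 0 higher and 15 lower on the deposited values (median -0.32), where the median of all genes was -0.30, and 1 higher and 4 lower after quantile normalization (median -0.06). RPTOR, the mTORC1 scaffold, was lower (36.8 with mutant KDM5A against 57.1 with empty vector, log2 fold change -0.62, adjusted p = 0.00167), and it was -0.95 on the deposited values and -0.63 after quantile normalization. LARP4B (-0.56) and the Rag GTPase RRAGA (-0.34) were lower too, and the translation repressor EIF4EBP1 was higher (0.28) on the main scaling but at -0.06 on the deposited values. LARP1 had 75.6 ± 8.17 with mutant KDM5A (SD, n = 2) and 89.0 ± 3.15 with empty vector (SD, n = 3), a difference that did not pass on the main scaling (log2 fold change -0.24, SE 0.09, adjusted p = 0.0983) or after quantile normalization (-0.32, adjusted p = 0.0643) and passed as lower on the deposited values (-0.57, adjusted p = 0.00754). EEF2K, the kinase that inhibits EEF2, had 11.1 ± 2.02 with mutant KDM5A (SD, n = 2) and 11.3 ± 0.623 with empty vector (SD, n = 3), with an adjusted p of 0.861 in the limma fit.

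**Figure D3:**
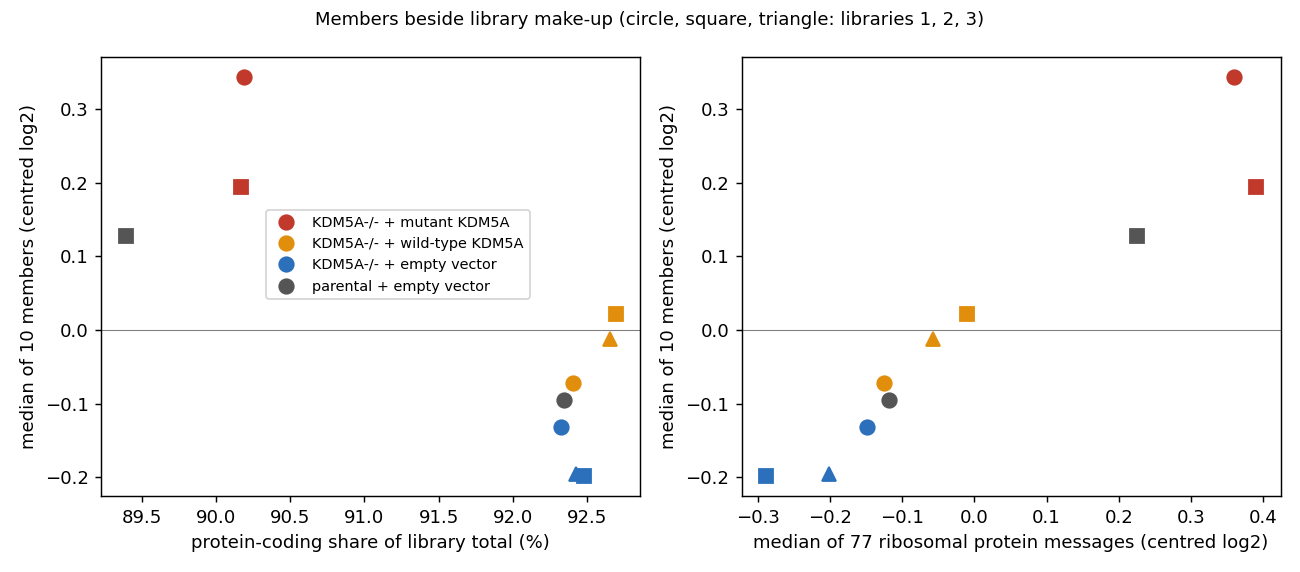
Median of the 10 members on a log2 scale centred on each gene's mean over the 10 libraries (y axis), against the protein-coding share of the library total in percent (left) and against the centred median of 77 ribosomal protein messages (right); points are libraries. The members' median is 0.13 to 0.34 in both mutant libraries and parental library 2, which have a protein-coding share of 89.4% to 90.2%, and -0.20 to 0.02 in the other 7; the heights are on the main scaling.

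With wild-type KDM5A against empty vector EEF2 was the 1 member that passed, and over all genes 4.54% did, 2.52% higher and 2.02% lower. Of the 400 other genes at or above the mean level of EIF3F, 51 (12.8%) were higher and 2 (0.5%) lower on the main scaling, against 4.75% higher and 1% lower on the deposited values and 3.25% higher and 1.75% lower after quantile normalization. EEF2 had 1759, 1909.9 and 1890.3 with wild-type KDM5A, against 1526, 1561 and 1606 with empty vector (log2 fold change 0.24, SE 0.05, adjusted p = 0.0380). The groups did not overlap, and EEF2 kept its direction but not its call whichever of the 6 libraries was left out (adjusted p 0.0692 to 0.148). EEF2 did not pass on the deposited values or after quantile normalization either, and nor did any other member. On the main scaling all 10 fold changes were above 0, from 0.05 for EIF3E to 0.24 for EEF2, with a median of 0.16. After quantile normalization 5 of them (EEF1A1, EEF1B2, EEF1G, EIF3E and EIF3F) were below 0. The 400 abundant genes were alike, with 375 above 0 on the main scaling (median 0.14) and 156 above 0 after quantile normalization (median -0.02). With only these 6 libraries in the fit 4 members passed, EEF1B2, EEF1D, EEF1G and EEF2, where 10.6% of all genes did. These 4 passed as well when both mutant libraries and parental library 2 were left out, which was tried once the data had been seen and where 10.3% of all genes passed.

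PABPC1 had 2569, 2852 and 2692 with wild-type KDM5A, against 2181, 2395 and 2479 with empty vector (log2 fold change 0.20, SE 0.08, adjusted p = 0.181), a difference close in size to its mutant one (0.19). EEF1A1 had 5547, 5869 and 5709 with wild-type KDM5A, all above the empty-vector values given earlier (log2 fold change 0.14, SE 0.08, adjusted p = 0.389). With wild-type KDM5A NACA had 968, 1044 and 1005 (log2 fold change 0.20, adjusted p = 0.190) and TPT1, also with wild-type KDM5A, had 1877, 2039 and 1977 (log2 fold change 0.16, adjusted p = 0.333). For 9 of the 10 members all 3 wild-type libraries lay above all empty-vector libraries, the exception being EIF3E. That pattern was found in 16.4% of all genes tested, and its share among genes as abundant as the members was not counted. None of the 77 ribosomal protein messages passed (median 0.15, turning to -0.03 after quantile normalization), and of the 20 other TOP messages HSPA8 alone did (log2 fold change 0.40, adjusted p = 0.00593), though not after quantile normalization (0.24, adjusted p = 0.142). Among the regulators RPTOR was lower here too (-0.46, adjusted p = 0.00626), as was the RNA-binding protein TIA1 (-0.48), and the mTORC1 inhibitor DDIT4 was higher (0.39); these 3 had the same sign under both other scalings, where DDIT4 did not pass (0.28 and 0.31). The mutant and wild-type comparisons share the empty-vector libraries.

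The direct comparison of mutant with wild-type KDM5A sets the plasmids against each other. The mutant libraries also had more KDM5A RNA (22816 to 23346 against 13452.5 to 16237) and a lower protein-coding share (90.2% against 92.4% to 92.7%). Plasmid, KDM5A level and library make-up cannot be told apart here. None of the 10 members passed with limma, and over all genes 0.0562% did, 0.0337% higher and 0.0225% lower. At an unadjusted p under 0.05 there were 8 of the 10 members, all but EEF2 and PABPC1, and 20.2% of all genes. Both mutant libraries lay above all wild-type libraries for 9 members, as for 19.5% of all genes tested. TPT1 differed most (2733 and 2475 with mutant KDM5A, against 1877, 2039 and 1977 with wild-type; log2 fold change 0.41, SE 0.10, adjusted p = 0.0943). EEF1A1 (0.38) and NACA (0.38) followed, with adjusted p-values of 0.0952 and 0.0927, and after quantile normalization TPT1 (-0.01) and EEF1A1 (-0.04) were below 0 while NACA was at 0.04. These 3 messages passed when only the 5 libraries compared were in the fit, where 2.27% of all genes did. EEF2 differed by 0.11 (SE 0.06, adjusted p = 0.341) and PABPC1 by -0.02 (SE 0.09, adjusted p = 0.945), with overlapping groups for PABPC1. The members' median was 0.28, and it turned to -0.05 after quantile normalization and was 0.08 with the protein-coding share in the model. Of the 400 other genes at or above the mean level of EIF3F, 348 had a fold change above 0. Their median was 0.24 on the main scaling and -0.07 after quantile normalization, so the members moved much as other abundant genes did. The share of those genes without overlap between the groups was not counted. The median of the ribosomal protein messages was 0.42 (0.02 after quantile normalization) and none of those passed on either scaling, while on the deposited values 12 of the 77 were higher (median 0.19).

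The comparison of knockout with parental cells, both with empty vector, gave no member that passed with limma, where 8.94% of all genes did, 4.84% higher and 4.09% lower. At an unadjusted p under 0.05 there were 4 members (EEF1A1, EEF1B2, EEF1G and NACA) and 25.7% of all genes. Of the 400 other genes at or above the mean level of EIF3F, 5.5% were higher and 7.5% lower on the main scaling, against 8% higher and 7% lower on the deposited values and 12% higher and 6% lower after quantile normalization. The fold changes were below 0 for 9 members on the main scaling, with a median of -0.17, which became 0.01 after quantile normalization. EEF1G had 1267, 1208 and 1268 in knockout cells, against 1391 and 1826 in parental cells (log2 fold change -0.35, SE 0.11, adjusted p = 0.0762). EEF1A1 had 5371, 4979.5 and 5187 in knockout cells, against 5661 and 6962 in parental cells (log2 fold change -0.28, SE 0.09). The parental libraries stood far apart for both messages. NACA had 931, 831 and 869.7 in knockout cells, against 952 and 1157 in parental cells (log2 fold change -0.26, SE 0.09, adjusted p = 0.0972). For 5 members (EEF1A1, EEF1B2, EEF1G, EEF2 and NACA) all knockout libraries lay below both parental libraries and for none above them, while 20.6% of all genes lay below and 21.9% above. PABPC1 had 2181, 2395 and 2479 in knockout cells, against 2324 and 2318 in parental cells (log2 fold change 0.02, SE 0.09, adjusted p = 0.933). On the deposited values EEF1A1 (-0.20) and EEF1G (-0.27) passed, where 7.55% of all genes did. None of the 77 ribosomal protein messages passed on the main scaling, and 2 had a fold change above 0 (median -0.26, and -0.05 after quantile normalization). Among the 31 regulators 5 were higher and 3 lower on the main scaling. RPTOR was higher in knockout cells (57.1 against 32.3 in parental cells, log2 fold change 0.80, adjusted p = 0.000493 with limma). It passed as higher under both other scalings too (0.88 and 0.81).

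The sizes and calls of this comparison depended on which parental library was in the fit. Without parental library 1 the members' median was -0.31 and 5 members passed (EEF1A1, EEF1B2, EEF1D, EEF1G and NACA), as did 10.8% of all genes. Without parental library 2 the median was -0.07 and none passed, while 3.62% of all genes did. Parental library 2 was above parental library 1 for 9 of the 10 members, by a median of 0.24 on the log2 scale, for 72 of 77 ribosomal protein messages (median 0.33) and for 8358 of all 17779 genes (median -0.01). The largest gap among the members was that of EEF1G (0.39), and PABPC1 (-0.003) and EEF2 (0.04) had the smallest. In 7 members (EEF1A1, EEF1B2, EEF1D, EEF1G, TPT1, EIF3E and NACA) the mutant libraries and parental library 2 all lay above the other 7 libraries, a pattern found in 5.57% of all genes tested. EEF2, PABPC1 and EIF3F did not show it. This split of libraries was chosen from the same data once seen, so the counts only describe it. The share among genes as abundant as the members was not counted.

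**Figure D4:**
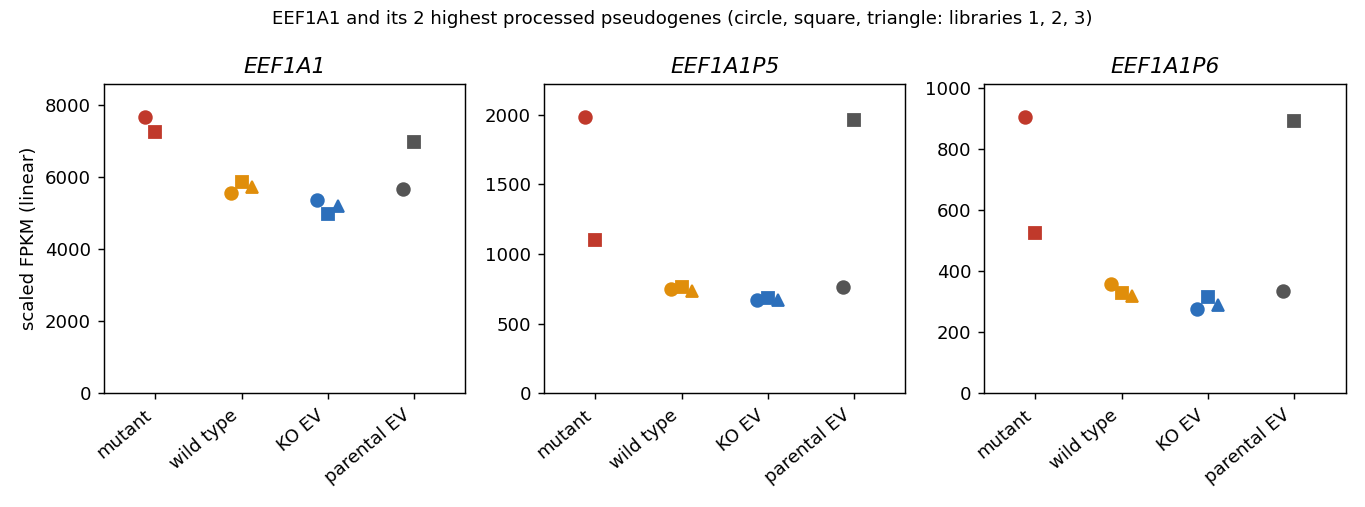
Scaled linear FPKM (y axis, from 0) of EEF1A1 and of its processed pseudogenes EEF1A1P5 and EEF1A1P6 in every library (points), with the groups on the x axis. EEF1A1P5 is at 1984 and 1099 in the mutant libraries and 1963 in parental library 2, against 668 to 765 in the other 7 libraries.

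Processed pseudogenes, intronless copies of an mRNA in the genome, can share reads with their parent gene, so the values of members with close copies are uncertain. EEF1A1 had 38 pseudogenes in the tables, and 10 reached a scaled value of 1 in a library. The highest, EEF1A1P5, had 1984 and 1099 with mutant KDM5A, 751, 765 and 734 with wild-type KDM5A, 668, 685 and 669 with empty vector in knockout cells, and 765 and 1963 in parental cells. Its high libraries were the ones with the lower protein-coding share. EEF1A1P6 followed the same libraries, with 905 and 525 with mutant KDM5A, 356, 329 and 319 with wild-type KDM5A, 277, 316 and 288 with empty vector in knockout cells, and 335 and 891 in parental cells. All EEF1A1 pseudogenes together made up 27.7% and 19.0% of the sum of EEF1A1 and its pseudogenes with mutant KDM5A and 29.4% in parental library 2, against 15.3% to 17.6% in the other 7 libraries. When pseudogenes were added to their parent gene, also tried once the data had been seen, the EEF1A1 log2 fold change between mutant KDM5A and empty vector was 0.65 in place of 0.52, and the count of members that passed was again 8. The pseudogene share was 12.8% to 14.3% for EEF1B2, almost all of it EEF1B2P3, and 9.96% to 11.8% for EIF3F. For the other 7 members it was at most 1.31%.

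EEF1DP2, a pseudogene of EEF1D that was singled out after its values were seen, was listed at 0 and 0.0120 with mutant KDM5A, against 4.78, 5.48 and 8.49 with wild-type KDM5A, 7.78, 7.60 and 5.71 with empty vector in knockout cells, and 8.10 and 3.70 in parental cells. It passed against empty vector (adjusted p = 0.00116) and against wild-type KDM5A (adjusted p = 0.0200), where 10 genes in all did. The mutant libraries were low and the other 8 libraries higher without overlap.

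By locus, the members were spread over the genome, in GRCh38 coordinates of GENCODE release 29. EEF1A1 lies on chromosome 6 (73515750 to 73523797), EEF1B2 on chromosome 2 (206159585 to 206162928), EEF1G on chromosome 11 (62559601 to 62574086), EIF3F on chromosome 11 (7970251 to 8001862), EEF2 on chromosome 19 (3976056 to 3985469), TPT1 on chromosome 13 (45333471 to 45341370) and NACA on chromosome 12 (56712428 to 56731628). EEF1D, PABPC1 and EIF3E lie on chromosome 8. Annotated small RNAs inside members (SNORD37 in EEF2, SNORA31 in TPT1, SNORD51 and SNORA41 in EEF1B2) were listed at 0 in every library. Genes on the opposite strand whose reads cannot be told apart without a strand setting were low beside the members: TPT1-AS1 had 19.1 to 30.7 and NDUFS1, which overlaps EEF1B2, had 51.8 to 60.5 over the 10 libraries. PRIM1, which overlaps NACA on the same strand, had 25.3 to 39.1.

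Outside the lists, the protein-coding genes whose centred log2 profile over the 10 libraries lay closest to the mean profile of the members were the actin regulator CFL1 (root mean square distance 0.03), the keratin KRT19 (0.03), the glutathione transferase GSTP1 (0.03), the kinase inhibitor PEBP1 (0.04) and the myosin light chain MYL12A (0.04). The members' own distances ran from 0.02 (EEF1B2) to 0.14 (PABPC1), and the median over 11639 candidate genes was 0.24. CFL1 had mean scaled values of 1239 with mutant KDM5A, 1029.9 with wild-type KDM5A, 904 with empty vector in knockout cells and 991 in parental cells.

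**Figure D5:**
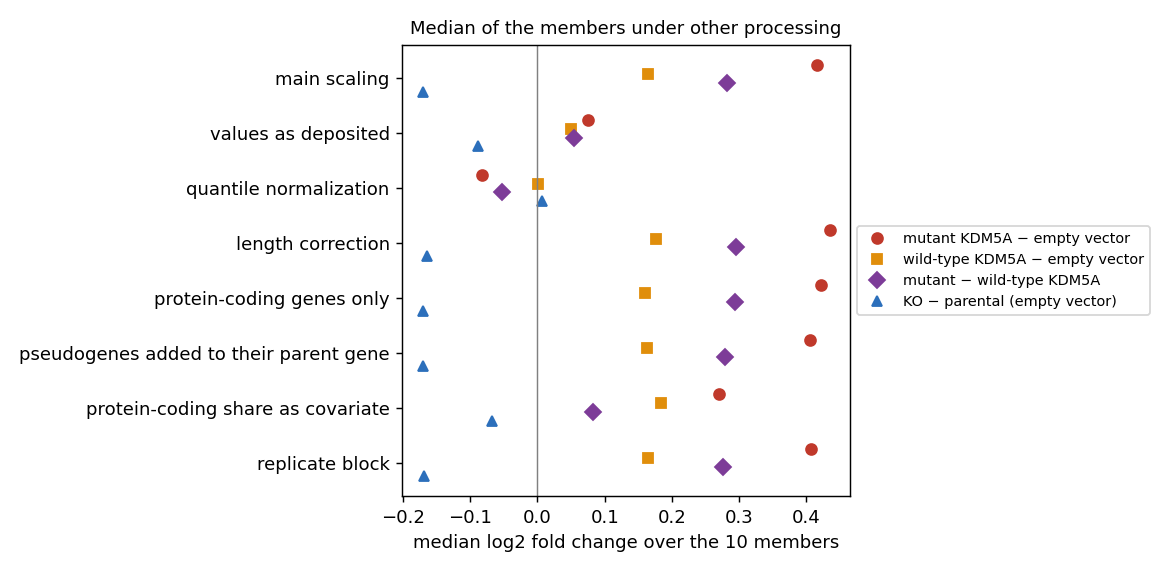
Median log2 fold change over the 10 members (x axis) in each comparison under the main scaling and 7 alternatives (y axis). The median for mutant KDM5A against empty vector is 0.42 on the main scaling, 0.07 on the deposited values and -0.08 after quantile normalization; the median for wild-type KDM5A lies between 0.00 and 0.18.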

How the data were processed

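RNA from 10 libraries of HCT116 cells was analysed in 4 groups. The submitters' processing notes name Cufflinks 2.2.1, STAR 2.7.1a, GATK 4.1.2 and Picard, and the build GRCh38; the order of tools, annotation release and strand setting are not given in the sources used here. The authors deposited 1 table of log2 FPKM values per library, with 60141 loci; the log2 is of a value plus 1, and linear values sum to 999975 to 1000010. Depth is therefore unknown.

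Values were made linear, summed per symbol and divided by 1 factor per library, the median over 13651 genes (1 or more throughout) of the ratio to their geometric mean. The filter kept 17779 genes that reached 1 after scaling in 2 or more libraries. Limma 3.58.1 in R 4.3.3 (trend, two-sided, 6 residual and 2.99 prior degrees of freedom) was run in a single fit of the 10 libraries on log2 of the scaled value plus 1, the scale of all fold changes, and the threshold was 0.05 after Benjamini-Hochberg adjustment over all genes. Python 3.11.15 with pandas 2.3.3 and matplotlib 3.10.9 was used otherwise. The fit was also run on simulated data with independent noise per gene and no shift in library make-up. That run therefore cannot show how the make-up differences described above affect the calls.

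GENCODE release 29 gave gene types and exonic lengths to 93.4% of loci. Any pair of libraries differed in at least 29810 loci. The members and lists were chosen with earlier results of these data known. By rule, all members, 6 set genes (LARP1, EEF2K, EEF1A2, PABPC4, BTF3, EEF1E1), the 5 nearest profiles, pseudogenes and paralogs could be named. So could up to 4 passing genes of smallest p per list and comparison, not all of which are named above. The group of 400 genes by level and the lists' values under other scalings were added after the values were seen. Alternatives were the deposited values, quantile normalization, a pseudocount of 0.1, no filter, array weights, only the libraries compared, the replicate block, length correction, protein-coding genes only and each library left out.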

Additional observations from a re-analysis of the deposited data

How the results depend on the processing

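Of the members' single values under the alternatives, 576 kept direction and side of the threshold, 32 lost and 20 gained a pass, and 42 changed sign; the cause was not tested. For mutant KDM5A against empty vector 8 members passed, against 3 on the deposited values, 1 (PABPC1, lower) after quantile normalization, 0 with the protein-coding share in the model, 6 with no filter (EEF1A1 and EEF1G lost their pass) and 5 to 9 with a library left out. The median of 0.42 became 0.075, -0.082 and 0.27 under the first 3 of these settings and 0.38 to 0.51 with a library left out. After quantile normalization EEF1A1 was at -0.21, EEF1B2 at -0.082, EEF1D at -0.083, EEF1G at -0.10, EEF2 at -0.22, TPT1 at -0.0035, PABPC1 at -0.40, EIF3E at -0.072 and EIF3F at -0.0072. On the deposited values PABPC1 was at -0.15 and EIF3F at -0.029.

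For wild-type KDM5A against empty vector 1 member passed, with 4.54% of all genes. The count was 0 on the deposited values (4.14% of all genes), after quantile normalization (3.45%), with no filter (1.5%) and with any 1 library left out (1.02% to 1.81%). It was 2 with array weights (11.8%) or the protein-coding share (6.08%). With only the libraries compared (10.6%) or without both mutant libraries and parental library 2 (10.3%) it was 4. The median of 0.16 became 0.050 on the deposited values (EIF3E -0.060, EIF3F -0.029) and 0.00047 after quantile normalization (EEF1A1 -0.17, EEF1B2 -0.012, EEF1G -0.0059, EIF3E -0.11, EIF3F -0.044).

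For mutant against wild-type KDM5A 0 members passed (0.0562% of all genes), and 3 did with only the libraries compared (2.27% of all genes). The median of 0.28 became 0.055 on the deposited values (EEF1D -0.011, EEF2 -0.12, EIF3F -0.00017) and -0.053 after quantile normalization (EEF1A1 -0.037, EEF1B2 -0.069, EEF1D -0.095, EEF1G -0.095, EEF2 -0.32, TPT1 -0.010). It was 0.082 with the protein-coding share, where PABPC1 was at 0.0063. With a library left out it was 0.21 to 0.37, and PABPC1 was -0.12 to 0.094, above 0 without mutant library 2 or wild-type library 2.

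For knockout against parental cells 0 members passed (8.94% of all genes), against 2 on the deposited values (7.55% of all genes), where EIF3F was at 0.077. The median of -0.17 became 0.0069 after quantile normalization (EEF1D 0.027, EEF2 0.13, TPT1 0.050, EIF3F 0.052), -0.067 with the protein-coding share (EIF3F 0.094), -0.065 without both mutant libraries and parental library 2 (EIF3F 0.093) and -0.31 to -0.069 with a library left out. There EIF3F was -0.10 to 0.089 and PABPC1 -0.023 to 0.070.

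Deviations from the group mean correlated by -0.09 to 0.05 over 13 pairs of same-numbered libraries and by -0.08 to 0.09 over 24 other pairs. In groups of 2 libraries the deviations mirror each other, so these values are not independent and cannot show whether the numbers pair libraries. With the replicate block 5 members passed for mutant KDM5A against empty vector (6.24% of all genes) and 0 for wild-type KDM5A (1.2%). PABPC1 was then at 0.0028 for mutant against wild-type KDM5A and -0.0018 for knockout against parental cells. Depth is unknown, and groups of 2 or 3 libraries limit the precision.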

Other observations

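Genes with a pyrimidine run at the annotated start were counted too, leaving out the members, the ribosomal proteins and the other messages described as TOP. The other translation factors and the regulators were left out only where they also stand in those lists. Of the genes kept, 666 protein-coding ones had a start of C followed by 4 or more pyrimidines. With mutant KDM5A against empty vector 10.8% of them were higher and 7.81% lower, with a median log2 fold change of -0.02, against 10.7% higher and 8.31% lower among 9144 protein-coding genes whose entries lacked it (median -0.01). With wild-type KDM5A the shares were 1.8% higher and 2.85% lower among genes with the run, and 3.47% and 2.3% among genes without it. The shares were not tested against each other.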
